A study of Mus musculus with 16 samples.

Results

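The transcripts of the nuclear-encoded subunits of respiratory complexes II to V were followed through oocyte maturation in mice with and without Psma7. Members were the entries of the deposited FPKM table whose gene name starts with Uqcr, Atp5, Cox4, Cox5, Cox6, Cox7 or Cox8, or is Sdha, Sdhb, Sdhc, Sdhd, Cyc1 or Cycs. The rule took 54 of the 28618 entries, under 53 names, since Atp5a1 is listed as 2 entries. They comprised 4 entries of complex II, 9 of complex III, cytochrome c (Cycs), 16 of complex IV, 16 of complex V, 2 that carry an Atp5 name but encode no subunit (Atp5s and Atp5sl), and 6 pseudogenes. The libraries came from wild-type (WT) oocytes and from oocytes of Psma7 cKO females, in which floxed Psma7 is deleted by CRE under the Zp3 promoter, active in growing oocytes and not in follicular cells. Psma7 encodes a subunit of the 20S core of the proteasome. Germinal vesicle (GV) oocytes and metaphase II (MII) eggs were collected from both genotypes, with 4 libraries in each of the 4 groups. Females were 3 to 4 weeks old and all had received 5 IU PMSG for 44 h, and those that gave eggs had received hCG 14 to 16 h before collection, their cumulus cells being removed with 0.3% hyaluronidase. The labels give 5 oocytes per library, whereas the study's methods give a larger pool.

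Electrons from succinate enter the chain at complex II, and complex III passes electrons from ubiquinol to cytochrome c, which carries them to complex IV, where oxygen is reduced. Complexes III and IV pump protons across the inner mitochondrial membrane, and complex V, the ATP synthase, uses the gradient to make ATP. Complexes III, IV and V, but not complex II, also contain subunits made inside the mitochondrion, so that messages from both genomes are needed for each of them. The fully grown oocyte has stopped transcribing, and between the GV and MII stages its stored messages are either kept and translated or shed, a choice in which the length of the poly(A) tail and elements near the 3′ end take part.

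Because stored messages are sorted through their 3′ ends, 30 bases around the last poly(A) signal are shown first for the messages the results turn on, in the build GRCm38 and on the coding strand. The capitals mark the poly(A) signal AATAAA. It starts 68 nt from the annotated transcript end in Uqcrc2 and 19 to 31 nt from it in the others shown. The first 3 members rose during WT maturation, the next 3 fell furthest in complexes III, IV and II, and the last 2 differed between the genotypes in how far they fell.
Uqcrc2: tattactggtggctttttaaAATAAAaaca
Cox8a: gtggggtccccctttgtaacAATAAAgtct
Cox6b2: cactttgtctttgtgccacaAATAAAgtta
Uqcrc1: gtgtgcagccagttacccccAATAAAgccc
Cox4i1: cgtatccaatggtccatgctAATAAAagac
Sdhb: tccctaagtacagcatatgtAATAAAcatt
Uqcrb: tctacctatgccacactttaAATAAAtgtc
Cox7b: aatttaactgttgctgaagaAATAAAggct
A poly(A) signal of the letters AATAAA or ATTAAA lay in the last 100 nt in 39 of the 43 members with a GENCODE transcript that were tested in WT maturation (90.7%), compared with 80.9% of all 8826 entries. Letters of a cytoplasmic polyadenylation element (TTTTAT or TTTTAAT, searched on the coding strand), to which CPEB proteins bind, lay in the same window in 2 of the 43 (4.65%), Cox5a and Cox6a2, compared with 19.7% of all. Both of these members fell, whereas none of the 3 members that rose carried the letters. Among all entries the share was 29.4% of those that rose and 13.8% of those that fell. The members were short, with a median transcript of 809 nt against 2864 nt, taking 1 selected transcript per gene. The windows were examined after the values were known, and each describes 1 annotated transcript end per gene, which need not be the end used in oocytes.

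RefSeq promoters, from 250 bases before to 50 after the start, matched 34 members. The NRF1 core TGCGCA was found in 20.6% of them and in 8.06% of 27025 promoters. The ETS motif CCGGAAG was found in 32.4% and 9.12%, and the YY1 core ATGGCG in 26.5% and 9.24%. The GC box GGGCGG was about as frequent in both, at 38.2% and 35.9%, and the TATA letters TATAAA were found in 5.88% and 14.2%. Both strands were searched, and matches of different motifs can overlap. A pair of promoters is shown, of a member that rose in maturation and of one that fell, with NRF1 and ETS matches in capitals. The Cox8a window is chr19:7217567-7217866 and the Atp5l window chr9:44920693-44920992, both on the minus strand of GRCm38.p6.
Cox8a: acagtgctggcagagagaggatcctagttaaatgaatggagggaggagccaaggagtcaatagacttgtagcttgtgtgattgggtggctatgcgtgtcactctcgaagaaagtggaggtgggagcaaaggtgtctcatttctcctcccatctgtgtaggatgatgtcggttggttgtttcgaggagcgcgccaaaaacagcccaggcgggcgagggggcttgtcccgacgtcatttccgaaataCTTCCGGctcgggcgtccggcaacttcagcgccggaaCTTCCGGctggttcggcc
Atp5l: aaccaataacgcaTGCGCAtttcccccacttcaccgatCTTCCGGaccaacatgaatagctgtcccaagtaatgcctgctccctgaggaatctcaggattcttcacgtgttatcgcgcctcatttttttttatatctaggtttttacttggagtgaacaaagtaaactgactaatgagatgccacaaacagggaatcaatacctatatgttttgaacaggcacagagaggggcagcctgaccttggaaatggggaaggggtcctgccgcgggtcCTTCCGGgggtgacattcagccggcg
Both hold ETS letters at 2 places, and the Atp5l window alone of the pair holds the NRF1 core. Of the 34 members matched, 7 hold that core, and Cox7b, Sdhb and Atp5h, which also fell, lack it. Whether the core goes with the direction of change was not tested.

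FPKM is a fragment count scaled to transcript length and to the library total, hence a share and no amount per cell, and since libraries were primed with oligo-dT, fewer copies and shorter tails cannot be told apart. Steps between the smallest values put the depth at about 10600000 to 15600000 fragments per library. Psma7 was at 142.0 to 200.6 FPKM in WT GV oocytes and at 11.1 to 18.0 in Psma7 cKO GV oocytes, and eggs held 97.7 to 172.1 FPKM without and 13.6 to 59.9 with the deletion (two-sided exact permutation test, p = 0.0286 at each stage, the smallest that 4 against 4 allow). All 12 oocyte markers were present, and their summed level was 14440 to 15410 FPKM in GV oocytes of both genotypes, while WT eggs had 8968 to 11310 and those of Psma7 cKO 10790 to 12390. The 17 cumulus and granulosa markers summed to 18.0 to 24.2 FPKM over the 16 libraries, with 13 or 14 of them under 1 FPKM in each group. Most of that sum came from Cyp19a1, Kitl and Nr5a2, with group means of 8.11 to 13.7, 3.86 to 6.11 and 2.38 to 3.64 FPKM, while Amh, Foxl2 and Lhcgr were under 0.04 FPKM in every group and Fshr was at 0.482 and 0.634 in WT and Psma7 cKO GV oocytes.

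In WT GV oocytes the members of one enzyme were found at very different levels. Complex IV held the highest, with Cox5a at 417 ± 75.0 FPKM and Cox7a2l, a factor of supercomplex formation, at 289 ± 20.8 (mean ± SD, n = 4 here and below). In complex V, Atp5b, the catalytic β subunit, was at 262 ± 20.4 FPKM and Atp5g2, one of 3 genes for the ring subunit c, at 144 ± 28.7. Sdhd and Sdhc, the membrane anchors of complex II, were at 228 ± 25.6 and 101 ± 5.36 FPKM, against 26.0 ± 5.42 for the iron-sulfur subunit Sdhb. Complex III was lower, led by the core protein Uqcrc2 at 76.0 ± 3.23 FPKM and by Uqcrb at 54.2 ± 11.7, and cytochrome c itself (Cycs) was at 8.12 ± 1.23. At the bottom of complex V were Atp5d at 1.02 and Atp5j at 2.24 FPKM, which encode subunits of the same enzyme as Atp5b. Summed over its entries, complex IV came to 1613 ± 302.2 FPKM, complex V to 1299.7 ± 148.3, complex II to 432.7 ± 22.6 and complex III to 269.1 ± 30.9. Of the 54 members, 7 never reached a mean of 1 FPKM in any set of libraries tested, and these were 5 of the 6 pseudogenes, the first Atp5a1 entry and Cox7b2. Short reads from close copies can be misplaced, and 14 members have at least 1 annotated pseudogene of 95% or higher identity over 200 nt, among them Atp5l with 8, Atp5h with 4 and Uqcrb with 3.

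**Figure D1:**
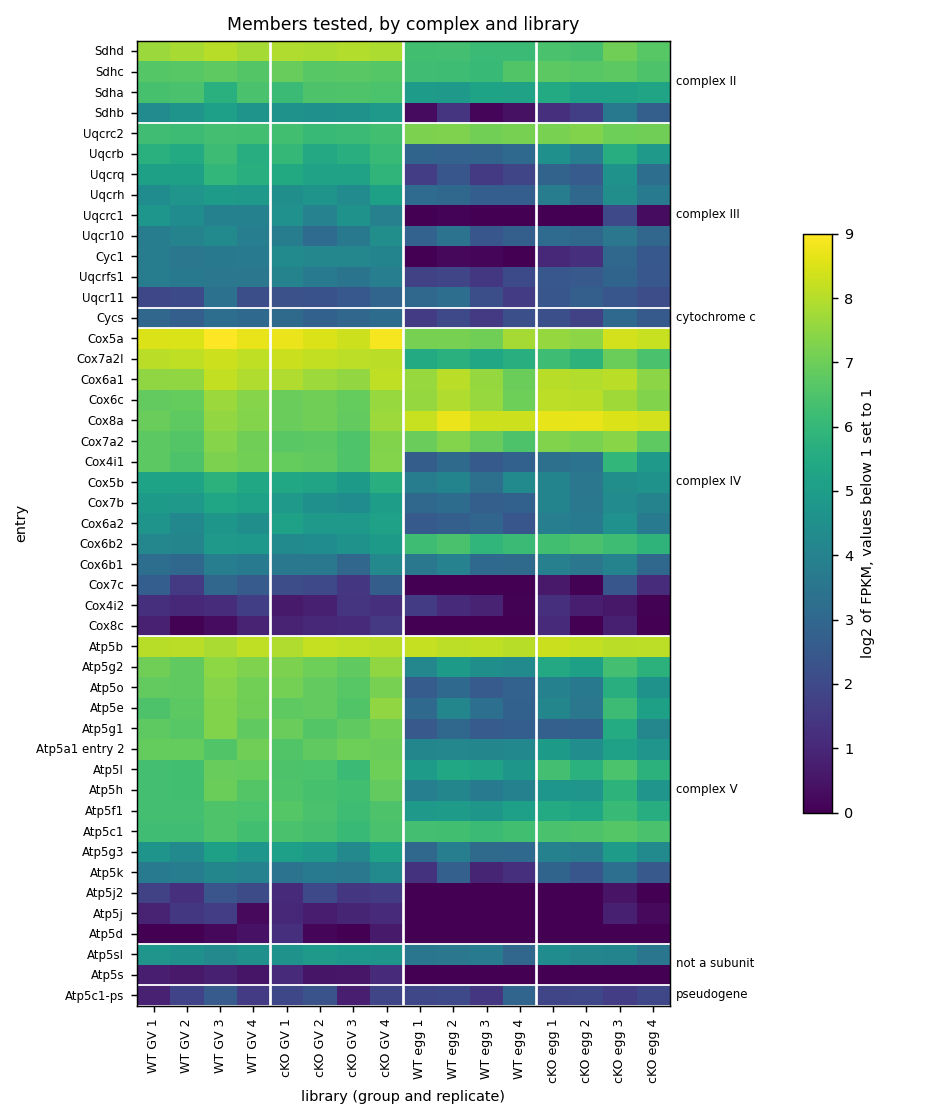
Heat map of the 47 members tested in GV oocytes (rows, by complex and by WT GV level) in the 16 libraries (columns), where color gives log2 of FPKM with values below 1 set to 1. Most rows darken from the GV columns to the egg columns, Uqcrc2, Cox8a and Cox6b2 brighten, and the third Psma7 cKO egg library is the brightest of its group in most rows.

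During maturation of WT oocytes most members fell. Tests used limma on log2 of FPKM with values below 1 set to 1, for entries with a mean of at least 1 FPKM, and a member was called at a Benjamini-Hochberg adjusted p under 0.05 over all entries tested. Of 44 members tested, 32 were lower in eggs than in GV oocytes, 3 were higher and 9 did not pass, whereas 52.4% of all 10475 entries were lower and 26.1% higher. The median log2 fold change was -1.53 for the members and -0.44 for all entries. In complex II all 4 members fell (Sdhc not after median-ratio rescaling), in complex III 7 of 9, in complex IV 7 of 14 and in complex V 12 of 14.

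The transcripts of complex II fell unevenly. The iron-sulfur subunit Sdhb was at 20.4, 25.2, 33.5 and 25.0 FPKM in the WT GV libraries and at 1.2, 2.60, 1.10 and 1.34 in the WT eggs. The stages did not overlap, and the mean in eggs was 5.99% of that in GV oocytes (log2 fold change -4.13, SE 0.26, limma adjusted p = 1.01e-07). Sdhd and Sdha, the flavoprotein that oxidizes succinate, kept 32.7% and 43.5% (adjusted p = 5.80e-08 and 4.40e-05). Sdhc kept 76.8% (log2 fold change -0.39, SE 0.10, limma adjusted p = 0.00390), and after rescaling by the median ratio of expressed entries its change was 0.06 and did not pass (adjusted p = 0.618).

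The transcripts of the core proteins of complex III went opposite ways. Uqcrc1 was at 26.8, 20.8, 15.5 and 15.4 FPKM in WT GV oocytes and at 0.537, 1.07, 0.548 and 0.458 in WT eggs, and its partner Uqcrc2 went from 74.8, 72.1, 79.3 and 78.0 to 151, 154, 136 and 143 FPKM. Neither gene's values overlapped between stages. Uqcrc1 therefore kept 3.34% of its GV level (log2 fold change -4.23, SE 0.18, limma adjusted p = 5.73e-09) while Uqcrc2 rose to 192.3% of it (0.94, SE 0.07, adjusted p = 5.12e-07). Uqcrc2 made up 28.4% ± 2.1 of the summed FPKM of complex III in GV oocytes and 79.6% ± 2.15 in eggs. Transcripts of the electron-carrying subunits fell, Cyc1 (the heme subunit that donates to cytochrome c) to 7.96% and Uqcrfs1 (the Rieske iron-sulfur protein) to 27.6%. Uqcrb fell to 14.0%. The log2 fold changes of Cyc1, Uqcrfs1 and Uqcrb were -3.57, -1.87 and -2.82 (limma adjusted p at most 2.79e-07). Cycs kept 44.7% (-1.18, SE 0.18, adjusted p = 0.000112). Uqcr11 alone of complex III did not pass in either direction (0.13, SE 0.40, adjusted p = 0.778).

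Complex IV was the most mixed. Cox4i1 went from 105, 90.6, 149 and 135 FPKM in WT GV oocytes to 6.25, 8.6, 5.85 and 6.95 in WT eggs, or 5.77% (log2 fold change -4.10, SE 0.17, limma adjusted p = 4.99e-09). Cox8a, the smallest subunit, went from 122, 109, 185 and 160 to 301, 426, 315 and 315 FPKM, or 234.9% (1.25, SE 0.17, adjusted p = 4.62e-05). The stages were apart for both genes. Cox5a, the most abundant member in GV oocytes, kept 38.2%, and Cox7a2l kept 16.4%. Cox6a1, Cox6c, Cox7a2, Cox6b1 and Cox4i2 did not pass in either direction, with log2 fold changes from -0.37 to 0.35. Cox8a, Cox6c, Cox6a1 and Cox7a2, grouped after their values were seen, made up 39.6% ± 2.56 of the summed FPKM of complex IV in WT GV oocytes and 71.6% ± 6.06 in WT eggs.

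In complex V the transcripts of the catalytic head subunits parted. Atp5b was at 265, 271, 233 and 280 FPKM in WT GV oocytes and at 293, 276, 285 and 263 in WT eggs, with overlapping values (log2 fold change 0.09, SE 0.08, limma adjusted p = 0.296). Atp5a1, the α subunit that alternates with β in the head, went from 117, 117, 93.7 and 132 FPKM in its second entry to 17.7, 18.1, 17.3 and 18.3, or 15.5% (-2.68, SE 0.10, adjusted p = 3.13e-09). The mean of Atp5b was thus above that of Atp5a1 at both stages, by a margin that widened in eggs. The γ subunit of the stalk, Atp5c1, kept 95.4% (-0.07, SE 0.09, adjusted p = 0.498). Atp5o, the stalk protein that ties head to membrane, kept 5.31% (-4.23, SE 0.15, adjusted p = 1.84e-09), and Atp5g1 kept 5.50%. Atp5b and Atp5c1, grouped after their values were seen, made up 26.6% ± 3.42 of the summed FPKM of complex V in GV oocytes and 69.4% ± 3.29 in eggs. No member of complex V rose.

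In Psma7 cKO oocytes the same comparison, on separate libraries, gave 27 lower and 4 higher of 46 members tested, whereas 51% of all 10748 entries were lower and 23% higher, and the median log2 fold change was -0.81 for the members and -0.42 for all. Uqcrc2, Cox8a and Cox6b2 were higher here too, with log2 fold changes of 0.94, 1.45 and 1.64. So was Cox6c at 0.67 (SE 0.21, limma adjusted p = 0.0175), for which WT gave 0.35 (adjusted p = 0.155), both without rescaling. After median-ratio rescaling the WT change of Cox6c was 0.80 (limma adjusted p = 0.00586), which is not on the scale of the 0.67. Uqcrc1 fell furthest here, by 3.69 on the log2 scale (SE 0.42, adjusted p = 4.96e-05), followed by Atp5g1, with a log2 fold change of -3.05. The egg mean as a percentage of the GV mean of the same genotype was larger in Psma7 cKO than in WT for 40 of the 47 members with a GV mean of at least 1 FPKM, with a median of 57.9% against 28.0%. The interaction of genotype and stage, given below, was positive for 39 of 46 members tested and for 5665 of 10615 entries. These percentages include Psma7 cKO egg replicate 3, the highest of its group for 31 of the 42 members tested in eggs. Summed over all 46 subunit and cytochrome c entries, WT eggs held 57.0% of the GV level and Psma7 cKO eggs 74.6%. For complex V these were 39.5% and 55.4%, for complex III 68.4% and 82.2%, for complex IV 72.9% and 95.3%, and for complex II 43.4% and 53.7%. Rescaling by the median ratio of expressed entries moved the median of all entries from -0.44 to 0.03 in WT, and from -0.42 to near 0 in Psma7 cKO, and with it WT had 31 members lower and 6 higher, and Psma7 cKO 21 lower and 9 higher. The 3 higher members added in WT were Cox6c, Atp5b and Atp5c1, the last 2 with rescaled log2 fold changes in WT of 0.55 and 0.39, and 0.49 and 0.61 after the deletion.

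**Figure D2:**
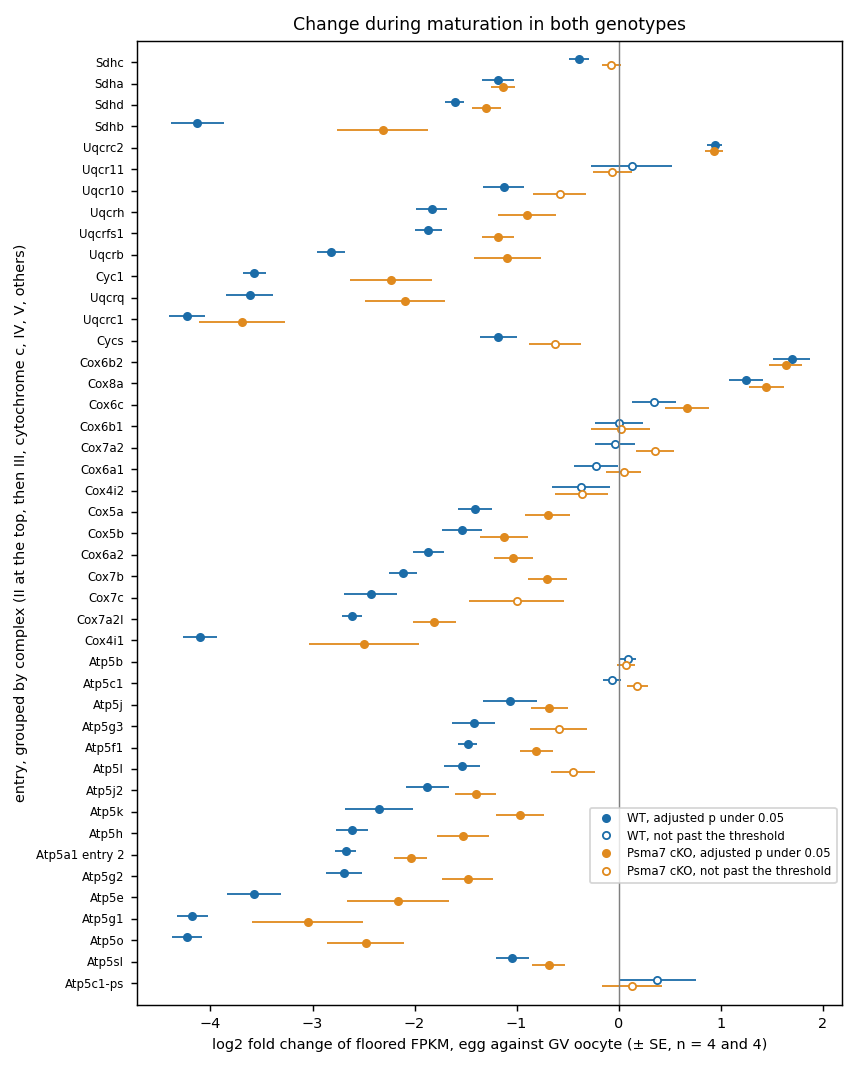
Log2 fold change of floored FPKM from GV oocyte to egg for 44 members, by complex, in WT (blue) and Psma7 cKO (orange), with bars of 1 SE and filled points past the adjusted threshold. Most points lie left of 0, the WT point is usually the further left of the pair, and the 2 points nearly coincide for Uqcrc2 (0.94 in both) and Cox6b2 (1.70 and 1.64).

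Several subunits of complexes IV and V are encoded by more than 1 gene, with forms known from particular tissues, and these did not move together. Cox6b2, known as the testis form, was at 17.8, 17.1, 29.0 and 27.5 FPKM in WT GV oocytes and at 73.5, 84.6, 61.4 and 70.6 in WT eggs, while the general form Cox6b1 was at 11.1 ± 2.90 and 11.3 ± 3.52. Cox6b2 was already the more abundant in GV oocytes, and its part of the pair went in WT from 67.2% ± 1.40 to 86.8% ± 2.2, and after deletion of Psma7 from 65.4% ± 6.76 to 85.3% ± 2.99. The testis form Cox8c was low, at 1.48 ± 0.406 FPKM against 144 ± 34.8 for Cox8a in WT GV oocytes, and Cox7b2 was listed at 0 in 15 of the 16 libraries.

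The muscle form Cox6a2 fell from 23.3 ± 3.91 to 6.39 ± 1.05 FPKM in WT (log2 fold change -1.86, SE 0.15, limma adjusted p = 8.70e-07), while Cox6a1 was at 225 ± 53.3 and 195.4 ± 57.0 (-0.22, SE 0.22, adjusted p = 0.371). Cox4i2, the lung form, was at 2.44 ± 0.487 and 1.99 ± 0.805 FPKM, and through the fall of Cox4i1 its part of the pair went from 2.03% ± 0.384 to 22.2% ± 8.04. In Psma7 cKO eggs that part was 9.58% ± 8.05, with overlap with WT eggs.

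The 3 genes for the ring subunit c of complex V encode precursors that differ in the part removed on import. Atp5g1 and Atp5g2 were at 120 ± 24.0 and 144 ± 28.7 FPKM in WT GV oocytes, within their spread of each other, and Atp5g3 was lower at 26.4 ± 6.04. In WT eggs Atp5g1 was at 6.6 ± 1.11, Atp5g3 at 9.97 ± 3.06 and Atp5g2 at 22.3 ± 5.24, so the order of Atp5g1 and Atp5g3 was exchanged. Atp5g1 made up 41.4% ± 2.33 of the 3 in WT GV oocytes and 17.2% ± 1.51 in WT eggs. In Psma7 cKO eggs Atp5g1 and Atp5g3 were at 19.4 ± 18.5 and 19.9 ± 7.56 FPKM, within their spread of each other, and in replicate 3 Atp5g1 was the higher, at 46.0 against 30.8.

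**Figure D3:**
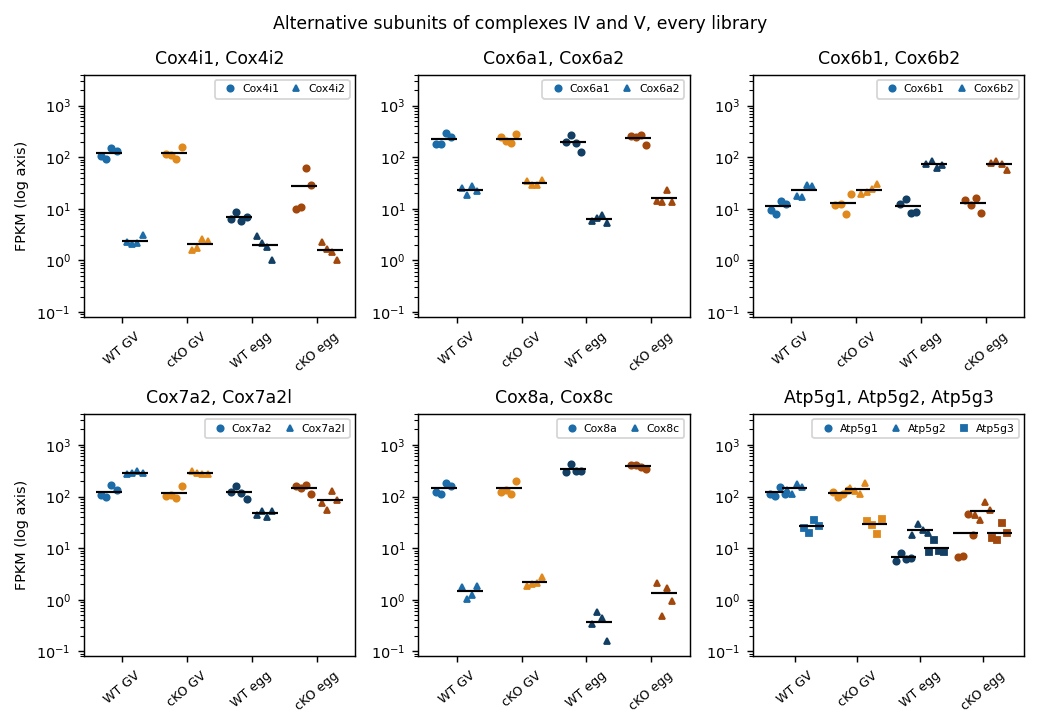
FPKM on a log axis in every library for 6 sets of alternative subunits, with 1 symbol per gene, color by group and a black line at each mean of 4 libraries. Cox6b2 goes up from GV oocytes to eggs while Cox6b1 stays level, and in WT the mean of Atp5g1 goes from beside Atp5g2 to the lowest of its set.

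Before maturation no member passed the test between genotypes. Of 47 members tested in GV oocytes, 0 were higher and 0 lower in Psma7 cKO by limma, whereas 0.0994% of all 11062 entries were higher and 0.0181% lower, and at an unadjusted p under 0.05 there were 3 members higher and 0 lower, against 7.62% and 3.06% of all entries. The fitted log2 fold changes ran from -0.38 to 0.59 with a median of -0.00, and their 95% intervals reached from -1.09 to 1.08 at the widest. The summed FPKM of the 46 subunit and cytochrome c entries in GV oocytes was 3623 ± 496.2 without and 3609 ± 437.1 with the deletion. Cyc1 and Cox6a2 were the only members tested whose values did not overlap between the genotypes at this stage, both higher in Psma7 cKO, and such a gap upward was present for 4.25% of all entries and downward for 2.42%. Cyc1 was at 13.7, 12.0, 12.4 and 12.7 FPKM in the WT libraries and at 19.3, 17.9, 17.9 and 16.7 in those of Psma7 cKO (log2 fold change 0.50, SE 0.10, limma adjusted p = 0.0854), and Cox6a2 was at 23.3 ± 3.91 and 32.2 ± 3.62 (0.48, SE 0.14, adjusted p = 0.222). Neither passed.

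In eggs 11 of 42 members tested were higher in Psma7 cKO (26.2%) and 0 were lower, whereas 6.53% of all 9492 entries tested were higher and 1.49% lower. The median log2 fold change was 0.63 for the members and 0.07 for all entries, and 38 of the 42 were positive, against 5635 of 9492 entries. At an unadjusted p under 0.05, 25 members were higher and 0 lower, against 20.6% and 8.8% of all entries. The WT and Psma7 cKO eggs did not overlap for 17 members, all higher in Psma7 cKO, and such a gap upward was seen for 13.6% of all entries and downward for 7.06%. Cox7c and Uqcrc1 reached the filter only through the Psma7 cKO eggs, with means of 2.52 and 1.64 FPKM there. Their WT egg means, 0.451 and 0.654 FPKM, lay under the floor. Both count among the 38 and Cox7c among the 17, and neither was called. By complex, 6 of 12 members of complex V, 3 of 9 of complex III, 2 of 14 of complex IV and 0 of 4 of complex II were called. The remaining 12 of the 54 members did not reach a mean of 1 FPKM over the egg libraries and were not tested.

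In complex III the members called were Uqcrb, Cyc1 and Uqcrfs1. Uqcrb, a small subunit next to the ubiquinone site, was at 7.56, 7.07, 7.22 and 8.44 FPKM in WT eggs, against 22.8, 14.3, 48.5 and 29.3 after deletion of Psma7 (log2 fold change 1.79, SE 0.31, limma adjusted p = 0.0225). Cyc1 was at 1.02, 1.15, 1.11 and 0.762 FPKM in WT eggs, about the floor of 1, and at 2.00, 2.36, 8.15 and 5.54 in those of Psma7 cKO (1.84, SE 0.41, adjusted p = 0.0350). The Psma7 cKO values of both spread over 3-fold or more while the WT values lay close together. Uqcrfs1 was at 3.33, 3.65, 2.77 and 4.04 FPKM and at 5.45, 5.67, 7.53 and 5.44 (0.81, SE 0.16, adjusted p = 0.0309). Uqcrc2, which rose in maturation, was at 146 ± 8.13 and 141 ± 12.5 FPKM (-0.06, 95% interval -0.24 to 0.12).

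In complex IV the members called were Cox7b and Cox6a2. Cox7b, a small subunit encoded on the X chromosome (GRCm38 106015700 to 106022450), was at 8.00, 9.16, 6.56 and 6.97 FPKM in WT eggs, against 16.7, 12.1, 20.1 and 16.1 after deletion of Psma7 (log2 fold change 1.07, SE 0.17, limma adjusted p = 0.0191). Cox6a2 was at 5.89, 6.64, 7.74 and 5.29 FPKM and at 14.4, 13.3, 23.6 and 13.5 (1.31, SE 0.20, adjusted p = 0.0191). Neither overlapped between genotypes. Cox4i1, with a larger ratio of means, was at 9.90, 10.7, 62.4 and 29.0 FPKM in Psma7 cKO eggs against 5.85 to 8.6 in WT eggs and did not pass (1.61, SE 0.53, adjusted p = 0.0861). Cox8a and Cox6b2, which rose in maturation, differed by 0.19 (95% interval -0.08 to 0.45) and 0.01 (-0.29 to 0.32).

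In complex V the members called came from the head, the stalk and the membrane part. Atp5o was at 6.18, 8.51, 5.97 and 7.07 FPKM in WT eggs, against 15.5, 12.5, 50.2 and 24.2 after deletion of Psma7 (log2 fold change 1.68, SE 0.38, limma adjusted p = 0.0355). The ring gene Atp5g2 was at 17.9, 29.6, 22.3 and 19.2 FPKM and at 43.3, 34.5, 78.7 and 54.4 (1.2, SE 0.25, adjusted p = 0.0323). Every Psma7 cKO egg value of both lay above every WT egg value. Atp5l, of the membrane part, was at 30.6, 40.7, 36.1 and 27.1 FPKM in WT eggs, against 79.8, 53.9, 87.5 and 54.9. Atp5a1 (second entry) was at 17.7, 18.1, 17.3 and 18.3 FPKM, against 29.97, 21.4, 35.5 and 26.1. The 2 genes had all Psma7 cKO values above all WT values, as had Atp5h, at 13.2 to 17.6 FPKM against 25.6 to 56.5, and Atp5f1, at 27.4 to 34.0 against 39.6 to 67.7. Atp5h and Atp5f1 of the stalk, Atp5l of the membrane part and Atp5a1 of the head (second entry) had log2 fold changes of 1.06, 0.69, 1.02 and 0.64, with limma adjusted p from 0.0259 to 0.0376. Atp5b, whose change in WT maturation did not pass, differed by 0.04 (95% interval -0.12 to 0.19).

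No member of complex II passed, although Sdhb had one of the larger ratios, with 1.2, 2.60, 1.10 and 1.34 FPKM in WT eggs against 2.40, 3.20, 12.5 and 6.63 after deletion of Psma7, and overlap between them (log2 fold change 1.78, SE 0.50, limma adjusted p = 0.0589). Sdhc was just over the threshold at 0.38 (SE 0.10, adjusted p = 0.0501). Counted by the ratio of mean floored FPKM, 7 members exceeded 3-fold toward Psma7 cKO eggs and 0 were over 3-fold lower, whereas 1.76% of all entries were higher and 0.0211% lower by this rule. They were Cyc1, Cox4i1, Sdhb, Uqcrb, Atp5o, Atp5e and Uqcrq, of which limma called 3. All 7 kept at most 14.0% of their GV level in WT eggs, and low WT egg values enter both figures.

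**Figure D4:**
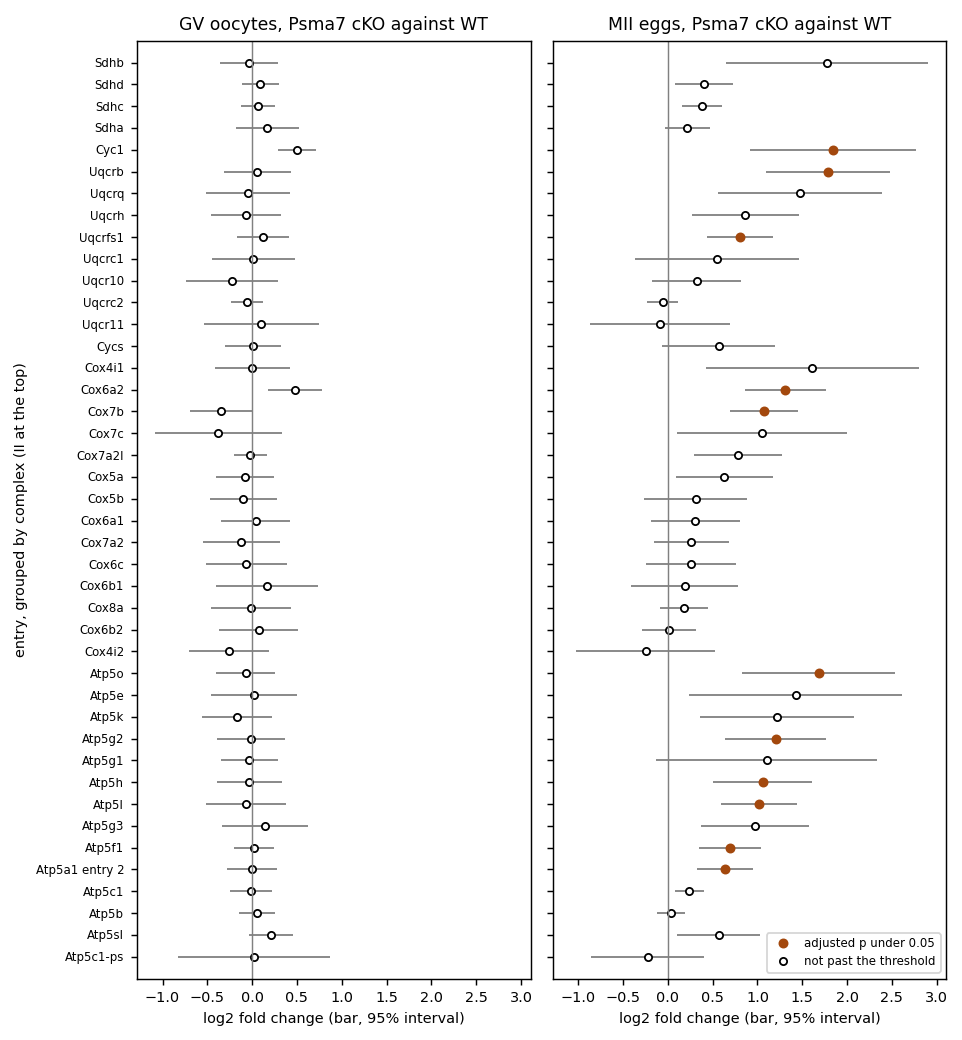
Log2 fold change of Psma7 cKO against WT for the 42 members tested in eggs, by complex, in GV oocytes (left) and MII eggs (right), with 95% intervals and filled points past the adjusted threshold. GV points lie around 0 with none filled, and egg points lie right of 0 for 38 of 42 with 11 filled. Of all entries tested in eggs, 5635 of 9492 were positive.

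**Figure D5:**
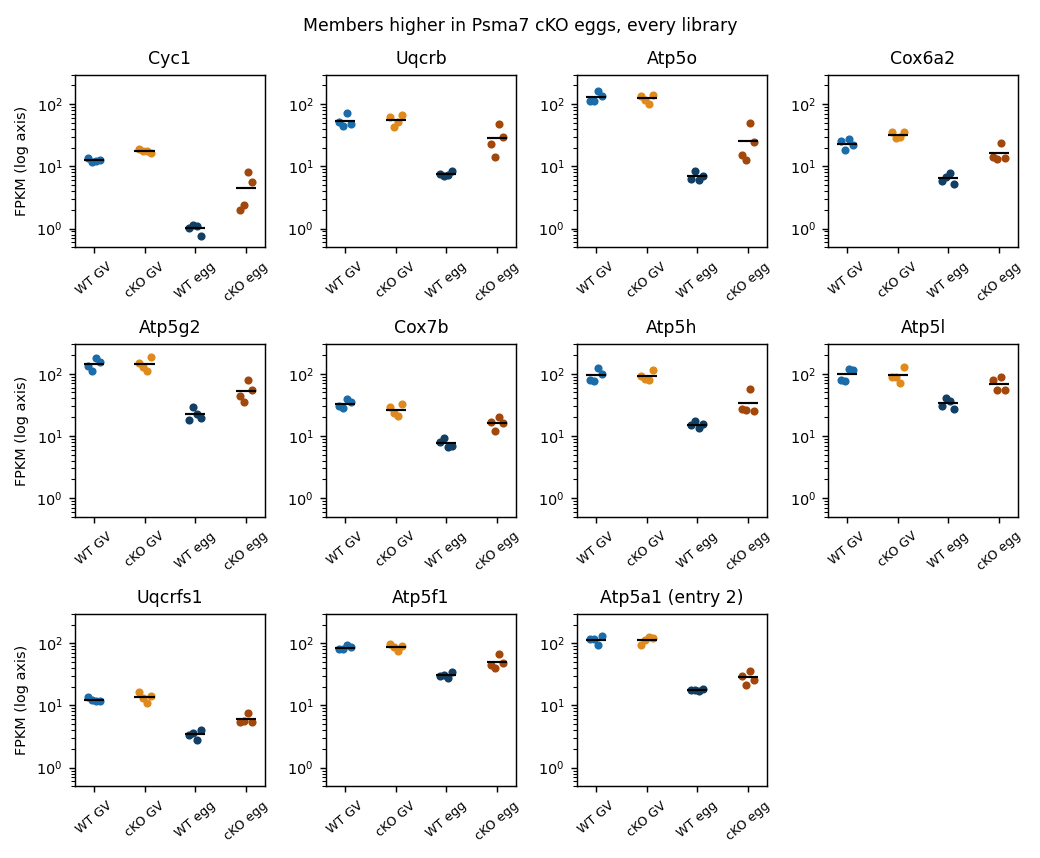
FPKM on a log axis in every library for the 11 members higher in Psma7 cKO eggs, with points for the 4 libraries of each group and a black line at the mean. In eggs every Psma7 cKO point lies above every WT point, and the third Psma7 cKO library is the highest of its group in all 11 panels.

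The calls in eggs changed when single libraries were left out, while the log2 fold changes of the 11 members kept their direction. Leaving out WT MII replicate 1, 3 or 4 left 0 members called, and leaving out WT MII replicate 2 gave 4, of which 3 (Cox7b, Cox6a2 and Atp5l) were among the 11, while the counts over all entries fell from 620 to 12, 3, 31 and 109. The log2 fold change of Uqcrb stayed between 1.49 and 2.08 and that of Cox7b between 0.96 and 1.21 over the 8 fits that each left out 1 egg library, with adjusted p of at most 0.0764 and 0.0701. Without Psma7 cKO replicates 1, 2, 3 and 4 in turn, 4, 19, 11 and 5 members were called. The third Psma7 cKO egg library was the highest of its group for all 11 called members as it was for 72.4% of the 620 entries called higher, and for 31 of the 42 members tested, against 34.1% of all entries tested. Without it the 11 remained called, of 40 members tested, while the share of all entries called higher fell to 3.07%, and the members over 3-fold higher fell from 7 to 1.

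The 4 Psma7 cKO egg libraries differed in extent. The median log2 ratio of the 42 members to their WT egg mean was 0.55, 0.27, 1.15 and 0.70 in replicates 1 to 4, against 0.12, 0.04, 0.07 and 0.02 for all entries. All of the member medians were above those of the WT egg libraries, which lay between -0.14 and 0.21. Transcript length moved with this in all 4 Psma7 cKO egg libraries. Length here is the median over the annotated coding transcripts of a gene. It can differ from the single transcript used for the 3′ ends, as for Uqcrq (504 nt here, 1521 nt there). Entries of up to 900 nt had medians of 0.25, 0.15, 0.51 and 0.25 in replicates 1 to 4, and longer ones 0.12, 0.03, 0.04 and -0.00. The 24 members of up to 900 nt had medians of 0.59, 0.36, 1.48 and 0.79, and the 17 longer ones 0.45, 0.22, 1.14 and 0.55. In WT egg replicates 1 to 4 the short members had medians of -0.0535, 0.337, -0.171 and -0.185. The longer members had -0.0371, 0.0778, -0.119 and 0.028 there. For the short members WT replicate 2 was therefore close to Psma7 cKO replicate 2. WT egg replicates 1 to 4 had medians of 0, 0.09, -0.09 and -0.01 for all entries of up to 900 nt. Longer entries in these WT libraries had medians of -0.01, 0.01, 0.00 and -0.02. The part of transcript length in the result was not tested.

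The genotypes differed in how far members fell during maturation for 2 of 46 tested, by the interaction of genotype and stage over all 16 libraries, whereas 1.07% of all 10615 entries had a positive and 0.188% a negative interaction. Both members were positive, and 0 were negative. Cox7b was at 23.1% of its GV level in WT eggs, against 61.5% after deletion of Psma7 (difference of log2 fold changes 1.42, SE 0.25, limma adjusted p = 0.0148), and its mean was lower in Psma7 cKO than in WT GV oocytes (26.4 ± 5.71 and 33.2 ± 4.93 FPKM). Uqcrb was at 14.0% and 50.9% (1.73, SE 0.38, adjusted p = 0.0363). After median-ratio rescaling the fall in Psma7 cKO passed for neither Cox7b (log2 fold change -0.277, limma adjusted p = 0.17) nor Uqcrb (-0.668, adjusted p = 0.0638). Both interactions still passed with that rescaling (limma adjusted p = 0.0124 and 0.0294). Cox7b passed in all 16 fits that each left out 1 library and Uqcrb in 5 of them. At an unadjusted p under 0.05 the interaction was positive for 22 members and negative for 0, against 12.7% and 5.03% of all entries. For the other 9 members called in eggs the interaction did not pass the adjusted threshold.

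Other genes of the pathway were followed from lists. Of 35 assembly factors of complexes II to V, 24 were tested in WT maturation, and 21 fell and 1 rose, with a median log2 fold change of -1.40. Of all entries tested in that comparison, 52.4% fell and 26.1% rose. The one that rose was Sdhaf4, which helps to mature Sdha, at 234.7 FPKM in WT GV oocytes and 319.2 in WT eggs (0.45, SE 0.12, limma adjusted p = 0.00477). In eggs 3 of 21 were higher in Psma7 cKO and 0 lower, with a median of 0.38, and these were Cox14 (1.08, SE 0.18, adjusted p = 0.0216), Coa6, which handles copper for complex IV and was under the floor in WT eggs with a mean of 0.807 FPKM (1.47, SE 0.28, adjusted p = 0.0292), and Tmem70, a factor of ATP synthase assembly (0.38, SE 0.10, adjusted p = 0.0440). Of 17 regulators of mitochondrial gene expression, 8 were tested in WT maturation, where 6 fell and Tfb2m, a mitochondrial transcription factor, rose (1.18, SE 0.11, adjusted p = 3.05e-06). Nrf1, which binds the motif of that name, went from 17.8 to 3.08 FPKM (-2.52, SE 0.15, adjusted p = 6.02e-08). In eggs 1 of 7 regulators was higher in Psma7 cKO, Tfb1m, a methyltransferase of mitochondrial ribosomal RNA (0.27, SE 0.07, adjusted p = 0.0440). Of all entries tested in eggs, 6.53% were higher in Psma7 cKO and 1.49% lower. Without the third Psma7 cKO egg library 2 of 20 assembly factors and 0 of 7 regulators were called, against 3.07% of all entries called higher. In GV oocytes 0 of 29 assembly factors and 0 of 11 regulators passed in either direction. Of all entries tested there, 0.0994% were higher and 0.0181% lower. The mitochondrially encoded subunits were not analysed here.

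Values of other nuclear genes for mitochondrial proteins are set beside those of the members, with no test of a difference. In WT maturation 36 of 45 complex I entries with an Nduf name fell and 3 rose, and 58 of 73 mitochondrial ribosomal protein entries fell and 8 rose, with median log2 fold changes of -1.90 and -1.56, against -1.53 for the members. In eggs 13 of 43 Nduf entries (30.2%) and 15 of 70 ribosomal protein entries (21.4%) were higher in Psma7 cKO and 0 of either lower, with medians of 0.72 and 0.67, against 0.63. Without the third Psma7 cKO egg library 6 of 42 and 11 of 68 were called, against 3.07% of all entries called higher. With all libraries, 52.4% of all entries fell and 26.1% rose in WT maturation, and 6.53% were higher in Psma7 cKO eggs.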

How the data were processed

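RNA-seq of GV oocytes and MII eggs of both genotypes (16 libraries) was used as the FPKM values that the authors deposited, quantified with Cufflinks 2.2.1. TopHat2 2.1.1 and the build mm10 are from the submitters' processing notes. The table has 0 ERCC entries, although spike-in RNA went into the lysis buffer, and amounts per cell were not analysed here. Columns were matched to samples by the names in the labels.

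Values below 1 FPKM were set to 1 and log2 was taken. Entries whose mean reached 1 FPKM in the libraries of a fit were tested with limma 3.58.1 in R 4.3.3 (intensity trend, empirical Bayes), with Benjamini-Hochberg adjustment over all entries. Each comparison used its own 8 libraries, and the interaction all 16. Nothing in the labels names separate animals, so p-values measure the spread between these libraries. The fits were tested on simulated data. Depth came from steps between values below 0.6 FPKM, and the depth bears on values near the floor. Gene positions and transcripts came from GENCODE M21 (GRCm38) by symbol for 53 of 54 members, and promoters from RefSeq. Python 3.11.15 was used otherwise.

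Replicate numbers were not treated as pairs, since same-numbered libraries deviated from their group means with correlations from -0.496 to 0.285. Named members were those called by genotype or interaction, the 2 most abundant and the highest and lowest WT maturation change of each complex, and sets of alternative subunits. Other members named were chosen after their values were seen. The members and lists were chosen with earlier results of these data known. Alternatives tried were adding 1 FPKM, a 0.1 FPKM floor, a minimum mean of 5 FPKM or none, median-ratio rescaling, leaving out the trend, blocking by replicate number, fitting all 16 libraries together, entries of one name summed, geometric means, 2-fold or 5-fold thresholds and each library left out.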

Additional observations from a re-analysis of the deposited data

Results flagged for a closer look

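The interaction of genotype and stage, a test of the difference itself, passed the adjusted threshold for Cox7b (1.42 on the log2 scale) and Uqcrb (1.73). With single libraries left out Cox7b kept passing, while Uqcrb did not pass in most of those fits. With no filter on low values neither passed (limma adjusted p = 0.0504 for Cox7b and 0.136 for Uqcrb).

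In 7 single members and 1 sum, 1 library lay apart from the other 3 of its group by a gap above Dixon's 95% critical value for 4 samples. In Psma7 cKO egg replicate 3 these were Atp5h at 56.5 FPKM (others 25.6 to 26.8), Cox6a2 at 23.6 (13.3 to 14.4), Uqcrfs1 at 7.53 (5.44 to 5.67) and the complex III sum at 260.1 (207.3 to 213.2). In WT egg replicate 2 they were Atp5g3 at 14.6 FPKM (8.27 to 8.68), Cox8a at 425.6 (300.7 to 315.1) and Sdhb at 2.60 (1.10 to 1.34). In WT egg replicate 4 Cox5a was at 219.5 FPKM (131.2 to 143.6). These are 8 of 142 groups of 4 examined (5.63%), and chance flags about 1 in 20.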

How the results depend on the processing

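The counts of members lower in Psma7 cKO (0 at both stages), higher in Psma7 cKO GV oocytes (0), with a negative interaction (0), over 3-fold lower in Psma7 cKO eggs (0) and lower in maturation kept within 1.5 times their value under every alternative run. The members higher in Psma7 cKO eggs, 11, became 22 with all 16 libraries in one fit, 0 with no filter on low values, and 0 to 19 when each library was left out. With the replicate block they were 2, Cox6a2 and Uqcrb. The replicate block changed no other count by over 1.5 times. The members with a positive interaction, 2, became 1 with 1 FPKM added, 4 with a floor of 0.1 FPKM, 0 with no filter and 1 to 13 when each library was left out, the highest, 13 and 5, being without cKO MII replicates 2 and 1. The members over 3-fold higher in Psma7 cKO eggs, 7, became 12 with a floor of 0.1 FPKM, 15 at 2-fold, 0 at 5-fold and 1 to 9 when each library was left out. Median-ratio rescaling made the members that rose in maturation 6 in WT and 9 in Psma7 cKO, against 3 and 4, and turned the log2 change of Sdhc from -0.39 to 0.0644 in WT (limma adjusted p = 0.618) and from -0.07, which had not passed, to 0.35 in Psma7 cKO (adjusted p = 0.00632). Leaving out each library gave 3 to 4 members higher and 31 to 34 lower in WT maturation, and 3 to 5 and 25 to 33 in Psma7 cKO. Of 2741 refits of single named genes, 2591 kept direction and call, 102 lost the call, 46 gained one and 2 reversed. The causes were not tested. Values near 1 FPKM, such as those of Cyc1 and Uqcrc1 in WT eggs, rest on few fragments, and their fold changes depend on the floor.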
